A study of Homo sapiens with 2 samples.

Results

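The 10 genes described here encode proteins with which a cell limits complement attack on itself or signals to immune cells. They are the complement protein C3, the membrane complement regulators CD55, CD46 and CD59, the checkpoint ligands CD274, CD276, PVR and CD47, the ectoenzyme NT5E and the adhesion receptor ICAM1. They were chosen by gene symbol, with their FPKM in these libraries already known, so what follows describes them and their counts support nothing further. All 10 had a value in both libraries and stood above 1 FPKM in each, among 13219 genes listed in either library and 10548 compared.

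The cells are a human breast line that the labels name 231, grown in L15 medium with serum. In the siYBX1 group YBX1 was targeted by transfection of a reagent named as an siRNA in the labels and as a Smart Silencer in the design text. The siNC group carries only that name as its treatment, and the protocol text of both groups is the same. RNA was taken 48 h after transfection, and each group was 1 library, so no difference given here has a replicate check, an SD or a p-value. Values are FPKM, fragments scaled to transcript length and library size, which lets levels of different genes be set side by side. No counts accompany them, and without the depth no counting interval could be formed. The siYBX1 library lists 11678 genes, 25 of them at 0 FPKM, and the siNC library 13017, 420 of them at 0 FPKM. For any list, the number of genes with a value can therefore be larger in siNC cells.

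YBX1, which encodes the DNA- and RNA-binding protein YB-1, stood at 38.1 FPKM in siYBX1 cells and at 649 FPKM in siNC cells. All 9 genes looked up as high in a mesenchymal, triple-negative breast line had values in both libraries. AXL stood at 306 against 218 FPKM and VIM at 250 against 201 FPKM. These 9 include the epithelial keratins KRT8 and KRT18. At least 2-fold lower in siYBX1 cells were 2 of the 9. CAV2 stood at 11.01 against 35.98 FPKM (a difference of -1.62 in log2(FPKM + 1)) and KRT8 at 27.7 against 74.7 FPKM (-1.40). Of 9 luminal and epithelial markers, 4 reached 1 FPKM in each library, KRT19 highest at 83.0 against 153 FPKM and EPCAM next by the mean of both libraries, at 5.10 against 8.22 FPKM, and ESR1 and PGR had no value in either. Of 12 leukocyte markers, 4 had a value in siYBX1 cells and 5 in siNC cells, summing to 72.2 against 11.9 FPKM, of which LCP1 alone made up 68.9 against 8.96 FPKM. Among the 3 compared, LCP1 (2.81) and CORO1A, at 2.34 against 0.212 FPKM (1.46), were at least 2-fold higher. LYZ stood at 0.671 against 1.91 FPKM (-0.80). The defining leukocyte genes PTPRC and CD3E had no value in either library, and neither had the endothelial genes PECAM1, CDH5 and VWF. Of 8 endothelial markers 2 had a value in siYBX1 cells and 3 in siNC cells, highest EGFL7 at 17.7 against 10.04 FPKM and ESAM at 17.1 against 5.19 FPKM. Of 8 fibroblast markers 2 and 3 did, highest COL1A1 at 3.67 against 0.351 FPKM and PDGFRB at 2.22 against 0.861 FPKM. Hepatocyte markers differed between the libraries. In siYBX1 cells 1 of 15 had a value, SERPINA1 at 39.96 FPKM, against 14 of 15 in siNC cells, where 11 reached 1 FPKM, with SERPINA1 at 17.0, FGB at 12.04 and ALB at 10.4 FPKM. The summed FPKM of the 15 was 39.96 in siYBX1 cells and 74.5 in siNC cells. In bulk RNA, fewer cells of a type and less RNA per cell cannot be told apart. The labels name only a breast line, and the origin of the hepatocyte transcripts in the siNC library was not tested.

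Complement is a cascade of blood and tissue proteins in which cleaved C3 attaches to a surface, marks it for uptake and starts the assembly of a membrane pore. CD55 breaks up the enzymes that cleave C3, CD46 is a cofactor for the inactivation of deposited C3b, and CD59 blocks the last step of pore assembly. CD274 (PD-L1), PVR and CD47 hold back T cells, natural killer cells and macrophages by binding PD-1, TIGIT and SIRPA, and tumour cells commonly carry them.

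Differences are given here on the log2(FPKM + 1) scale, siYBX1 minus siNC, a scale that understates the differences of low genes. From a difference of 1 (2-fold) upwards a gene is called higher or lower. By this measure 3 of the 10 genes were higher in siYBX1 cells (C3, ICAM1 and CD59), where 7.20% of all compared genes were, and 2 were lower (CD55 and PVR), where 5.62% of all compared genes were. The other 5 lay within 2-fold. The members were picked with this contrast known, so nothing is read from these shares. The median difference was 0.16 over the 10 genes and 0.02 over all compared genes, for which the middle of the distribution ran from -0.39 at the 25th percentile to 0.43 at the 75th.

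**Figure D1:**
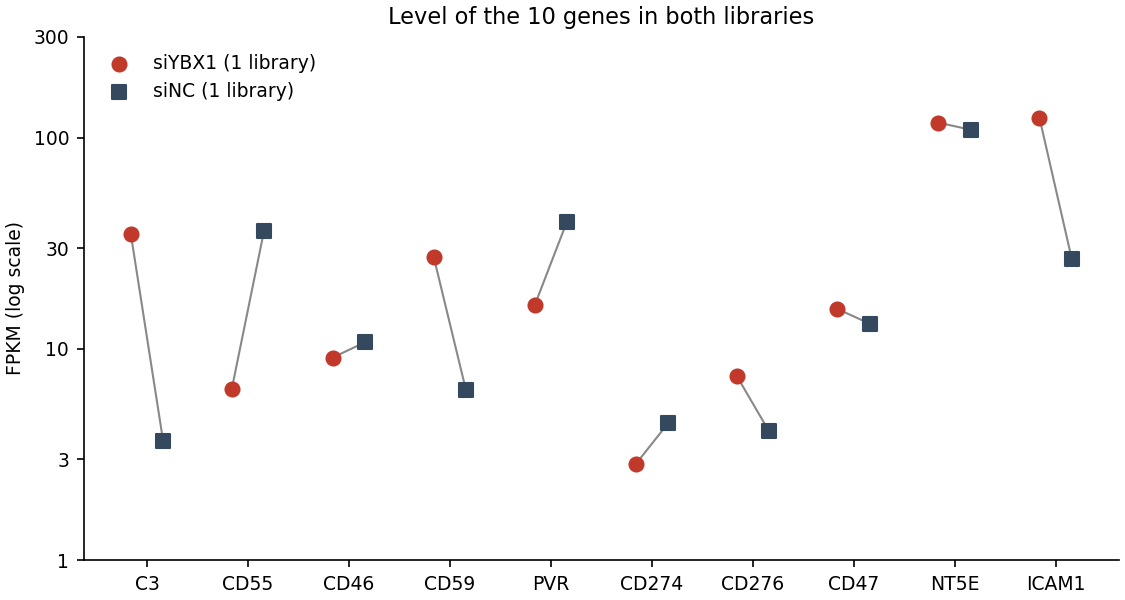
FPKM on a log scale for each of the 10 genes, with siYBX1 cells as red circles, siNC cells as dark squares and a line joining both values of a gene. C3, CD59 and ICAM1 stand higher in siYBX1 cells, CD55 and PVR stand lower, and NT5E differs little (118 against 109 FPKM).

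C3 showed the largest positive difference of the 10. It stood at 34.9 FPKM in siYBX1 cells, against 3.66 FPKM in siNC cells, which is 9.54-fold higher and a log2 difference of 2.95. Only 16 of the 10548 compared genes had a larger one. C3 was thereby the third highest of the 10 genes in siYBX1 cells and the lowest in siNC cells. Liver is the main source of blood C3. Of the 15 hepatocyte markers, SERPINA1 was higher in siYBX1 cells, at 39.96 against 17.0 FPKM (1.19). The others with a value had one in siNC cells alone. Macrophages make C3 too. The leukocyte markers LCP1 and CORO1A were higher in siYBX1 cells, and LYZ had a negative difference (-0.80). PTPRC and CD14 had no value in siYBX1 cells. The part of hepatocyte or leukocyte transcripts in the C3 result was not tested. C3 overlaps GPR108, a gene on the same strand in GENCODE 29, which stood at 7.96 FPKM in siYBX1 cells and 3.72 FPKM in siNC cells. Reads from the shared stretch could be assigned to either gene.

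The complement regulators of the cell surface did not move together. CD55 stood at 6.46 FPKM in siYBX1 cells against 36.3 FPKM in siNC cells, 5.62-fold lower (log2 difference -2.32), and 13 of the compared genes had a more negative difference. CD59 stood at 27.3 FPKM in siYBX1 cells against 6.37 FPKM in siNC cells, 4.28-fold higher (1.94), with 64 compared genes above it. CD46 stood at 9.10 against 10.7 FPKM (-0.22), within 2-fold.

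The order of these regulators was therefore opposite in the libraries. In siYBX1 cells CD59 was highest, at 2.99 times the FPKM of CD46 and 4.22 times that of CD55. In siNC cells CD55 was highest, at 3.38 times the FPKM of CD46 and 5.69 times that of CD59. C3 stood above all of them in siYBX1 cells, at 5.41 times the FPKM of CD55, and below all of them in siNC cells, where CD55 was at 9.91 times the FPKM of C3. CD55 and CD59 are both held in the membrane by a glycosylphosphatidylinositol (GPI) anchor, as is NT5E, while CD46 spans the membrane. The GPI-anchored genes thus included a lower one, a higher one and one within 2-fold. CD55 and CD46 lie on chromosome 1, in the cluster of complement regulator genes, and CD59 lies on chromosome 11.

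The promoters of CD55 and CD59, the regulators that differed in opposite directions, are shown here as the 250 bases before the annotated start, from RefSeq on GRCh38.p14. The deposited values were made on GRCh37, so these coordinates belong to the RefSeq table only. CD59 has 4 annotated starts in that table, and the most upstream one is shown. CD55 covers chr1:207321428-207321677 on the plus strand and CD59 covers chr11:33736480-33736729 on the minus strand. Capitals mark matches, on either strand, to the CCAAT box (CCAAT), whose reverse complement is the core of the Y-box after which YB-1 is named, the interferon-gamma activated site, or GAS element (TTCNNNGAA), the AP-1 site (TGANTCA), the GC box (GGGCGG), the kappa B consensus and GGAAATTCC, the kappa B site known from ICAM1.
CD55: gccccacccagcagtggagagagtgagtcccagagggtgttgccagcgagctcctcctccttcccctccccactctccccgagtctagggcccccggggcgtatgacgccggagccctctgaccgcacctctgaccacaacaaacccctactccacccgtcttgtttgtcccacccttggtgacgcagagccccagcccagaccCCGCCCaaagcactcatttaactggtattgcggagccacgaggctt
CD59: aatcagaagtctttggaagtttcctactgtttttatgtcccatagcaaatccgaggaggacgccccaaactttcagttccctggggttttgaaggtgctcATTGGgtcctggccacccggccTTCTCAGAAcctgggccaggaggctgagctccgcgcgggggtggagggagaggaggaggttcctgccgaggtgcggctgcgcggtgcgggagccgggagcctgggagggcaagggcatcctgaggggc
The CD55 window held a GC box at positions -46 to -41, counted back from the start, and no other match. The CD59 window shown held a CCAAT box on the opposite strand at -150 to -146 and a GAS element at -128 to -120. Windows of other CD59 starts, not shown, held matches that this window lacks. These were AP-1 sites at -117 to -111 and -23 to -17, and GC boxes at -60 to -55 and -47 to -42. Each position is counted back from the start of its own window. Among all 35116 promoter windows of this length in the table, 32.0% held a CCAAT box, 6.57% a GAS element, 6.57% an AP-1 site, 42.6% a GC box and 9.96% the kappa B consensus. Of the 10 genes, 9 had a promoter in the table, and 3 of these 9 (CD46, CD59 and CD276) held a CCAAT box in at least 1 window. Counted by window, as the shares above are, it was 6 of 14, and windows of 1 gene overlap in part. A match is a string of letters, not a site in use, and the absence of one says nothing of a factor.

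Other complement genes were mostly low. In a list of 18 further regulators of the surface and the fluid phase, 3 were compared. Of these, 0 were higher and 1 lower (over all compared genes 7.20% and 5.62%). The lower one, CLU, encodes the chaperone clusterin, a fluid-phase inhibitor of pore assembly, and stood at 1.40 against 4.19 FPKM (-1.11). C4BPB was at 7.73 against 8.11 FPKM (-0.06), and C1QBP, the most abundant of the list, at 82.1 against 84.3 FPKM (-0.04). Only 3 of the 18 had a value in siYBX1 cells, against 9 in siNC cells, whose library lists more genes. Among those with a value in siNC cells alone were VTN at 2.48 FPKM and SERPING1 at 1.82 FPKM, both also made by hepatocytes, whose markers had values in that library. CLU was also higher in siNC cells. The part of hepatocyte transcripts in the values of VTN, SERPING1 and CLU was not tested.

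Of 26 other complement components, 5 were compared, with 1 higher and 1 lower (over all compared genes 7.20% and 5.62%). CFB, which provides the protease of the alternative pathway, stood at 6.58 FPKM in siYBX1 cells against 1.76 FPKM in siNC cells (1.46). C5, the component cleaved at the start of pore formation, stood at 0.427 against 2.18 FPKM (-1.16). C4A and C4B, near-identical genes whose reads may have been divided between them, averaged under 1 FPKM and were not compared, at 0.267 against 1.40 FPKM and 0.226 against 1.5001 FPKM. Hepatocytes make C5 and C4 too, and their markers had values mainly in siNC cells, where C5, C4A and C4B were higher. The part of these transcripts in the C5 result was not tested. C1R (3.02 against 1.68 FPKM, 0.58) and CFD (2.86 against 1.52 FPKM, 0.62), proteases of the classical and alternative pathways, lay within 2-fold, and so did C1S (0.979 against 1.62 FPKM, -0.40). The alternative pathway builds the enzyme that cleaves C3 from the products of C3 and CFB, the latter cut by that of CFD. C3, CFB and CFD had positive differences, that of CFD within 2-fold. They were set side by side after their values were seen. Of 7 complement receptors, none was compared, and ITGB2 was the highest in siYBX1 cells, at 0.490 FPKM.

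The checkpoint ligands also differed among themselves. PVR (CD155), which inhibits natural killer and T cells through TIGIT and activates them through CD226, stood at 16.1 FPKM in siYBX1 cells against 40.0 FPKM in siNC cells, 2.49-fold lower (-1.27). It was the fifth of the 10 genes in siYBX1 cells and the second highest in siNC cells. PVR overlaps CEACAM19 on the same strand in GENCODE 29, which stood below 1 FPKM, at 0.947 against 0.731 FPKM. The related NECTIN2, NECTIN3 and NECTIN1 lay within 2-fold, at 34.9 against 29.8 FPKM (0.22), 4.78 against 5.85 FPKM (-0.24) and 1.44 against 1.43 FPKM (0.01).

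CD274, the PD-1 ligand PD-L1, was low in both libraries, at 2.84 FPKM in siYBX1 cells against 4.44 FPKM in siNC cells (-0.50). It was the lowest of the 10 genes in siYBX1 cells, where 29.6% of listed genes stood below it, against 48.2% in siNC cells. The siNC library lists more genes and more of them at 0 FPKM, so these shares have unlike bases. CD276 (B7-H3), a B7 family protein without a settled receptor, stood at 7.47 against 4.09 FPKM, 1.83-fold higher (0.74) and so within 2-fold on this scale. CD276 was at 2.63 times the FPKM of CD274 in siYBX1 cells and at 0.921 times in siNC cells. PDCD1LG2, the other PD-1 ligand, stood at 3.20 against 2.19 FPKM (0.40).

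CD274 is known as a target of interferon-gamma signalling through JAK kinases and IRF1, and CMTM6 protects its protein from degradation. In a list of 17 such genes, all compared, 2 were higher and 0 lower (over all compared genes 7.20% and 5.62%). STAT3 stood at 22.9 against 9.45 FPKM (1.20) and CMTM6 at 43.4 against 17.8 FPKM (1.24). IRF1 was at 2.20 against 2.07 FPKM (0.06), JAK2 at 0.668 against 1.58 FPKM (-0.63) and JAK1, with the highest mean of the list, at 41.2 against 28.9 FPKM (0.50). CD274 itself and CMTM6 therefore did not share a direction. The list median was 0.14, against 0.02 over all compared genes.

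Among 21 other ligands of the B7 and butyrophilin families and of inhibitory receptors, 7 were compared. Of these, 1 was higher and 0 lower (over all compared genes 7.20% and 5.62%). LGALS3, which encodes the glycan-binding galectin-3, a ligand of LAG-3, stood at 24.7 against 11.6 FPKM (1.02, and 0.88 with both libraries scaled to the same summed FPKM, which is within 2-fold). HLA-E, the ligand of the inhibitory receptor NKG2A, was the most abundant, at 69.1 against 41.4 FPKM (0.72). BTN2A1 stood at 11.4 against 15.2 FPKM (-0.38).

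CD47, which tells macrophages not to engulf the cell, stood at 15.4 FPKM in siYBX1 cells against 13.2 FPKM in siNC cells (0.22). Its level in relation to PVR differed between the libraries: PVR was at 1.04 times the FPKM of CD47 in siYBX1 cells and at 3.04 times in siNC cells. Of 9 CD47 partners, 6 were compared, with 1 higher and 0 lower (over all compared genes 7.20% and 5.62%). QPCTL, the enzyme that modifies CD47 so that SIRPA can bind, was at 6.95 against 4.95 FPKM (0.42), while its secreted relative QPCT was at 2.35 against 0.300 FPKM (1.37). THBS1, the CD47 ligand thrombospondin-1, stood at 176 against 132 FPKM (0.41), and CALR, the pro-engulfment signal calreticulin, at 285 against 322 FPKM (-0.18).

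**Figure D2:**
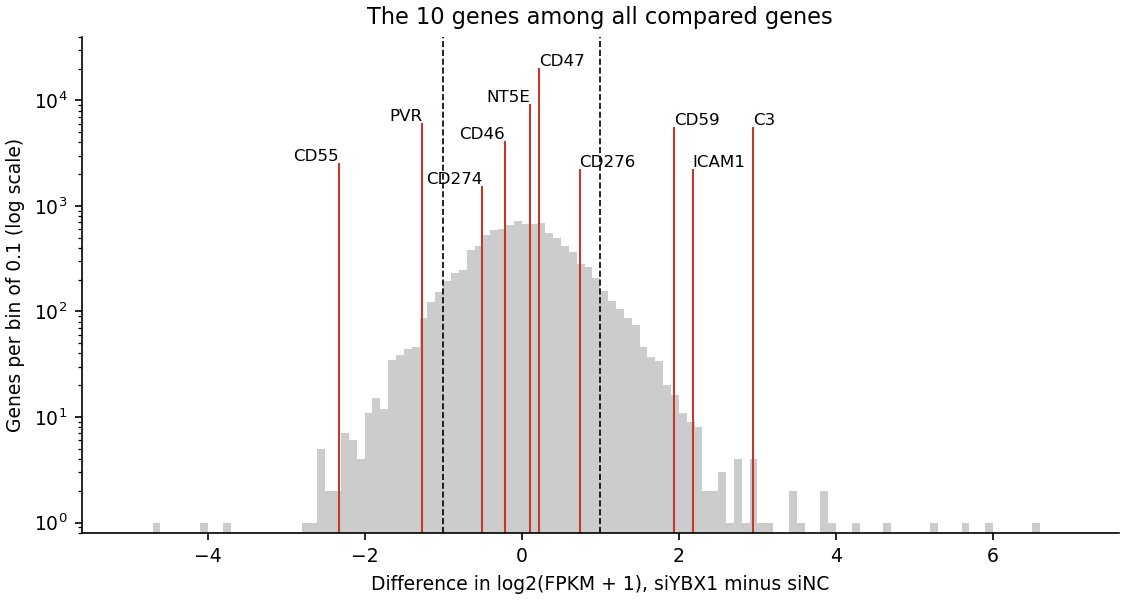
Number of compared genes per bin of 0.1 (log scale) against the difference in log2(FPKM + 1), siYBX1 minus siNC, with the 10 genes as labelled red lines whose height has no meaning and dashed lines at 1 and -1. CD55 (-2.32) lies in the lower tail and CD59 (1.94), ICAM1 (2.18) and C3 (2.95) in the upper tail, while CD46, CD47, NT5E, CD274 and CD276 lie between the dashed lines.

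NT5E (CD73) converts extracellular AMP into adenosine, which dampens T cells, and is a known surface protein of basal-like breast cancer cells. It stood at 118 FPKM in siYBX1 cells, second of the 10 genes, and at 109 FPKM in siNC cells, where it was the highest (log2 difference 0.11, and -0.04 with both libraries scaled to the same summed FPKM, so it carries no direction). In siYBX1 cells 98.3% of the listed genes stood below it, and in siNC cells 98.6%. Of 20 other adenosine pathway genes, 8 were compared, with 2 higher and 1 lower (over all compared genes 7.20% and 5.62%).

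The lower one, ENPP1, cleaves extracellular ATP to AMP, the substrate of NT5E, and stood at 4.36 FPKM in siYBX1 cells against 15.0 FPKM in siNC cells (-1.58). PANX1, a channel that releases ATP, stood at 23.3 against 10.7 FPKM (1.06), and the adenosine receptor ADORA2B at 31.9 against 15.3 FPKM (1.01). Both fell short of 2-fold with the libraries scaled to the same summed FPKM, at 0.92 and 0.87. The nucleoside transporter SLC29A1 (61.4 against 36.7 FPKM, 0.73) and the kinase ADK (36.7 against 29.2 FPKM, 0.32), which remove adenosine, lay within 2-fold.

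ICAM1, the adhesion receptor that leukocytes grip through the integrin LFA-1, stood at 124 FPKM in siYBX1 cells against 26.7 FPKM in siNC cells, 4.65-fold higher (2.18), and 41 compared genes had a larger difference. It was the highest of the 10 genes in siYBX1 cells, at 1.06 times the FPKM of NT5E, and the fourth in siNC cells, at 0.245 times. No gene with a value overlaps it in GENCODE 29. ICAM1 is a textbook target of NF-kB and of interferon-gamma, and PVR is the gene of the 10 on the same chromosome that differed the other way. Their 250 bases before the start, from the same RefSeq table and marked in the same way, are at chr19:10270870-10271119 and chr19:44643660-44643909, both on the plus strand.
ICAM1: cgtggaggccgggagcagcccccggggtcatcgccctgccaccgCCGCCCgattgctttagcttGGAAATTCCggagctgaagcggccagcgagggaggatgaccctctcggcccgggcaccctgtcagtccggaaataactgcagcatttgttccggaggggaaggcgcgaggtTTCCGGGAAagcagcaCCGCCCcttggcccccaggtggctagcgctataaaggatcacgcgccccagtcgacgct
PVR: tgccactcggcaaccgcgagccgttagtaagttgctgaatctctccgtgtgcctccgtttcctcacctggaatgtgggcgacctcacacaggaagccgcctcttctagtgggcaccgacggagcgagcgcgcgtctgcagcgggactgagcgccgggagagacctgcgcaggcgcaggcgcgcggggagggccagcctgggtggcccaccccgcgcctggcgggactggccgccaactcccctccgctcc
The ICAM1 window held a GAS element at -75 to -67, GC boxes at -206 to -201 and -59 to -54, and GGAAATTCC at -186 to -178. That string is the site known from ICAM1 itself, so its match there was given in advance. The share of all windows that held it, 0.413%, therefore adds nothing for ICAM1. The kappa B consensus had no match in the ICAM1 window. The PVR window held no match to any of the 6 motifs searched. The GAS element was present in the windows of CD274, CD59 and ICAM1, of which CD274 had a negative difference.

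In a list of 16 ICAM family members, adhesion receptors and cytoskeletal linkers, 12 were compared, with 1 higher and 1 lower (over all compared genes 7.20% and 5.62%) and a median of -0.35. The higher one, F11R, encodes the tight junction protein JAM-A and stood at 12.2 against 2.26 FPKM (2.01). The lower one, ICAM3, stood at 0.854 against 3.06 FPKM (-1.13). ICAM2 and ICAM5 were low, at 1.55 against 1.04 FPKM (0.32) and 3.17 against 2.40 FPKM (0.29), and CD58, which T cells bind through CD2, stood at 13.2 against 21.4 FPKM (-0.65).

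The linkers that tie ICAM1 to the actin cortex were abundant. MSN stood at 213 against 203 FPKM (0.07), EZR at 99.9 against 183 FPKM (-0.87) and RDX at 34.8 against 68.3 FPKM (-0.95). EZR and RDX passed 2-fold with the libraries scaled to the same summed FPKM, at -1.02 and -1.09.

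**Figure D3:**
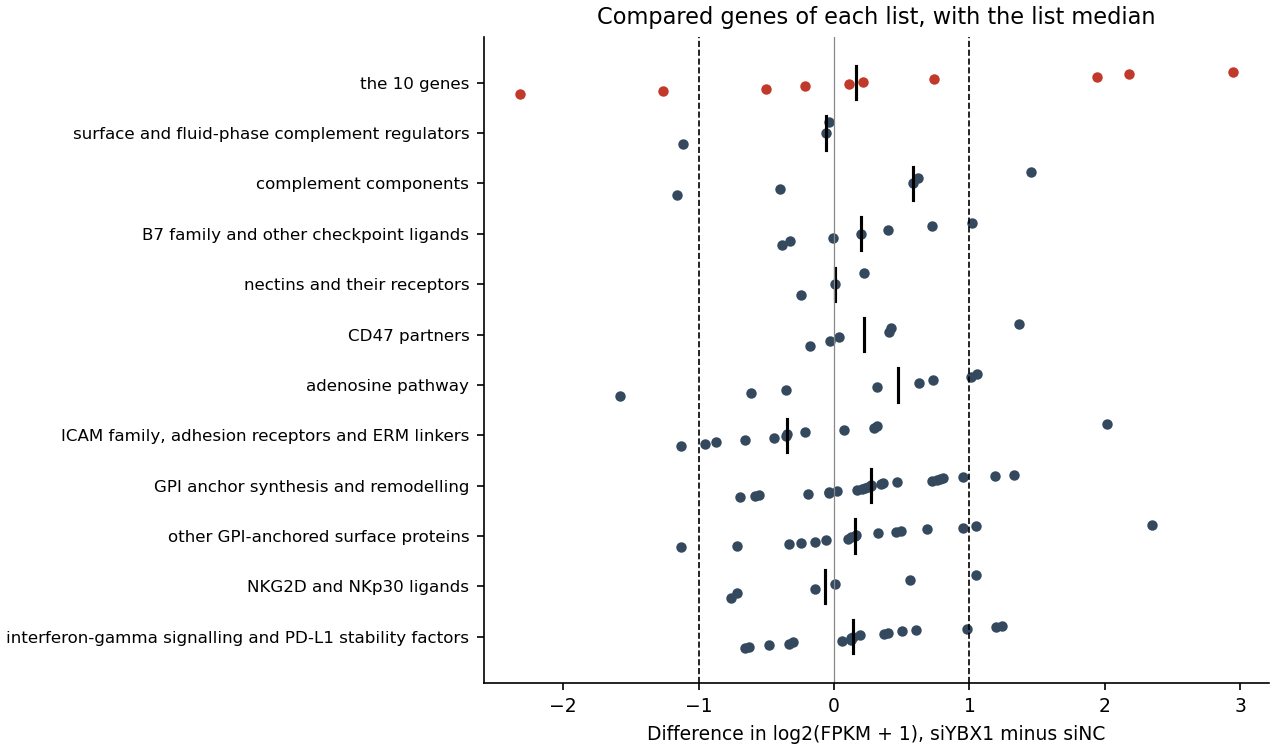
Difference in log2(FPKM + 1), siYBX1 minus siNC, of each compared gene in the lists (dots, spread vertically by rank for visibility), with the median of each list as a black bar and dashed lines at 1 and -1. The 10 genes, in red, run from -2.32 to 2.95, while most genes of the other lists lie between the dashed lines.

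Together the 12 lists held 213 genes besides the 10, of which 151 had a value in a library and 105 were compared. In siYBX1 cells 12 were higher (11.4%, against 7.20% of all compared genes) and 5 lower (4.76%, against 5.62%). Their median difference was 0.16, against 0.02 over all compared genes. With both libraries scaled to the same summed FPKM these counts were 8 and 7, and those over all genes were 557 and 807, against 759 and 593 as deposited.

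The values of several of the 10 genes bear on how far transcript length goes with them. Over all compared genes the median difference was 0.22 in the shortest of 10 length bins and -0.23 in the longest. CD59, with a longest coding transcript of 7631 bases, lies in the longest bin, and its difference was 2.12 once the trends with length and GC content were removed. CD55 (2892 bases), PVR (3325 bases) and ICAM1 (3252 bases) share the fifth bin, where the median was 0.02, and had -2.25, -1.34 and 2.103 after removal. For C3, at 5263 bases, the difference was 2.95 with and without the trends.

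**Figure D4:**
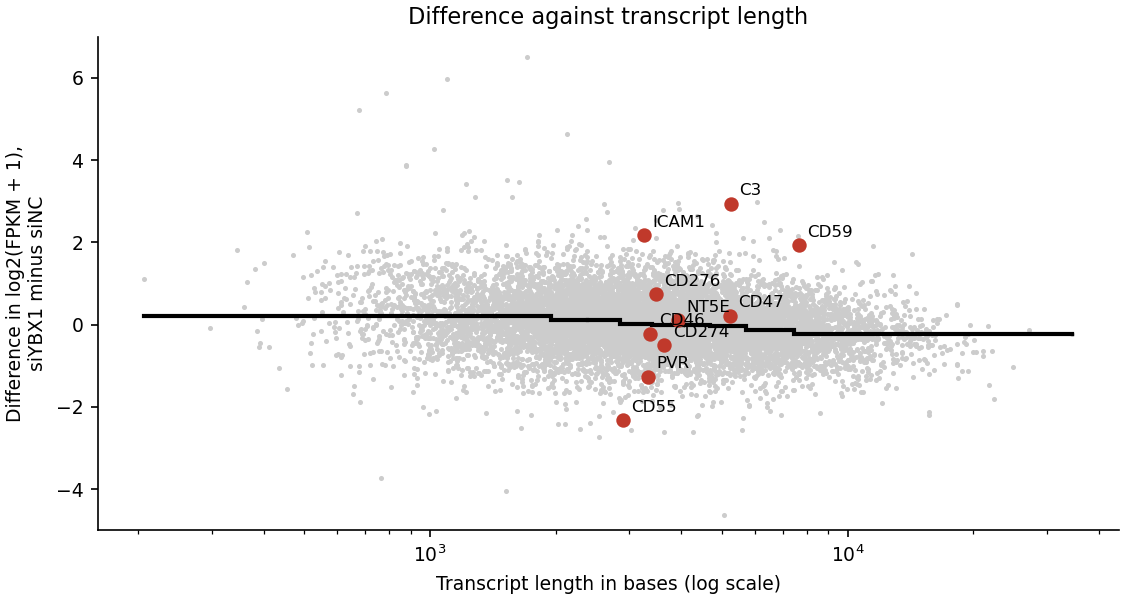
Difference in log2(FPKM + 1), siYBX1 minus siNC, against transcript length in bases (log scale) for all compared genes with a length (grey), the median of each of 10 length bins (black lines) and the 10 genes (red). The medians decline from 0.22 to -0.23 along the axis, and CD59 at 7631 bases and C3 at 5263 bases stand well above their bins.

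With 2 libraries, likeness between genes can rest on no more than 2 values each. By Euclidean distance in both log2(FPKM + 1) values, the nearest genes to C3 were SMIM26 (35.3 against 4.51 FPKM, distance 0.24), MYC (28.4 against 3.92 FPKM, 0.30) and FP15737 (25.3 against 3.36 FPKM, 0.46). Those nearest to CD55 were CENPE (6.40 against 31.7 FPKM, 0.19), RIPOR1 (5.31 against 37.2 FPKM, 0.24) and CCDC34 (7.01 against 29.5 FPKM, 0.31).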

How the data were processed

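One library of siYBX1 cells and one of siNC cells were compared. The authors deposited FPKM values per gene and library, per the file headers. StringTie 1.3.3, HISAT2 2.1.0 and cutadapt 1.17, with build GRCh37, are listed without roles, per the submitters' processing notes. Not given in the sources used here are the annotation, the use of strand and the rule for listing genes. The depth is unknown, and reads of overlapping genes may have been divided in ways the values do not show.

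Differences were computed as log2(FPKM + 1), siYBX1 minus siNC, for genes listed in both tables whose mean reached 1 FPKM, and called from 1 (2-fold). No test was possible with 1 library per group. The 10 genes and the lists were chosen with earlier results of these data known. Named genes of the pathway lists are those past 2-fold and the highest of each list. Those at 5 FPKM or more in 1 library and at 0 or missing in the other were to be named too, but these lists held none. Hepatocyte markers such as ALB and FGB had such values in siNC cells, but this rule was not applied to markers. Other list genes were named for their roles after their values were seen. Among markers, the 2 highest per list, those past 2-fold and the absent defining ones were taken, and ALB was added for its role.

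Alternatives were pseudocounts of 0.1 and 5, median centring, equal totals, equal upper quartiles, no filter, a mean of at least 5 FPKM, missing genes as 0, and removal of length and GC trends (B-splines with 5 degrees of freedom each, patsy 1.0.2). Length and GC content came from the longest coding transcript in GENCODE 29, available for 99.6% of compared genes. Promoter motifs were counted on both strands. The procedure was tested on simulated data. Python 3.11.15 and pandas 2.3.3 were used. Some genes of the lists are not reported here.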

Additional observations from a re-analysis of the deposited data

How the results depend on the processing

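The counts of 3 higher and 2 lower among the 10 genes were the same under all 9 alternatives. Of 89 values of single genes under these alternatives, 88 kept their direction and their side of 2-fold, and 1 reversed: NT5E, at -0.036 with both libraries scaled to the same summed FPKM. CD274 has no value at a mean of at least 5 FPKM, since it fell under that filter. The differences ranged from 2.20 to 3.22 for C3, 2.03 to 2.21 for ICAM1, 1.504 to 2.12 for CD59, -2.47 to -1.85 for CD55 and -1.40 to -1.10 for PVR. Over all genes, a pseudocount of 5 gave 314 higher and 209 lower, and one of 0.1 gave 1097 higher and 925 lower. The other pathway genes came to 3 higher and 1 lower at a pseudocount of 5, and to 14 higher and 10 lower at 0.1. At a mean of at least 5 FPKM, where fewer genes were compared, they came to 8 higher and 2 lower. A larger pseudocount shrinks the differences of low genes by construction. Equal totals shifted the median of all genes to -0.11, so small differences have no direction of their own. No paired analysis was possible because each group is 1 library, and none could be left out. The unknown depth limits what can be said of genes under a few FPKM, such as C5, ICAM3 and QPCT.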

Other observations

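Stress-induced ligands of natural killer cell receptors were measured besides the ligands of inhibitory receptors. Of 10 ligands of NKG2D and NKp30, 6 were compared, with 1 higher and 0 lower (over all compared genes 7.20% and 5.62%). ULBP2 stood at 20.5 FPKM in siYBX1 cells against 9.40 FPKM in siNC cells (log2 difference 1.05, and 0.91 with both libraries scaled to the same summed FPKM). The stress-induced MICA and MICB stood at 23.8 against 26.3 FPKM (-0.14) and 29.2 against 19.5 FPKM (0.56). BAG6, a chaperone that also serves as an NKp30 ligand, was the most abundant, at 37.3 against 37.2 FPKM (0.00). The remaining compared genes, RAET1G and ULBP3, stood at 0.662 against 1.82 FPKM (-0.76) and 1.39 against 2.93 FPKM (-0.72).

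CD55, CD59 and NT5E need a GPI anchor to reach the surface. Of 30 genes that build or remodel this anchor, 23 were compared, with 2 higher and 0 lower and a median of 0.27. Over all compared genes 7.20% were higher and 5.62% lower, and the median was 0.02. PIGS, a subunit of the transamidase that attaches the anchor, stood at 12.1 against 4.74 FPKM (1.19), and the mannosyltransferase PIGV at 4.71 against 1.27 FPKM (1.33). PIGA, the catalytic subunit of the opening step, stood at 4.49 against 3.27 FPKM (0.36), and DPM1, which makes the mannose donor, had the highest mean of the list, at 56.1 against 28.5 FPKM (0.95). Others of the list had negative differences, among them PIGT at 3.60 against 5.74 FPKM (-0.55) and DPM3 at 29.9 against 49.0 FPKM (-0.69). Of 33 other GPI-anchored proteins, 17 were compared, with 2 higher and 1 lower. These were VNN1, a pantetheinase, at 6.79 against 0.531 FPKM (2.35), ULBP2, and the heparan sulfate proteoglycan GPC1, at 3.03 against 7.80 FPKM (-1.13). PRNP, the prion protein gene, was the most abundant, at 119 against 106 FPKM (0.17).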
